A study of Mus musculus with 9 samples.

Results

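The genes described here are 52 tropomyosins and actin filament regulators. They were chosen by their symbols and not by measured values, though with earlier results of these data known. Every probe that the platform annotation assigns to one of these symbols alone was taken, and probes given several symbols were left out. Of the 52 genes, 48 had such a probe, 105 probes in all, out of 19057 genes with such probes and 45281 probes on the array. RNA of epididymal adipose tissue, the fat pad beside the epididymis, was measured on Illumina mouse bead arrays, 1 array per mouse. All 9 animals were FVB/N mice aged 3 months whose food had been withheld for 14 to 16 h. The tg/tg group held 5 mice with a Tm5NM1 transgene, which adds a cytoskeletal tropomyosin, and the wt/wt group held 4 wild-type mice. The sources used here give neither the promoter that drives the transgene nor the number of founders. Mouse numbers are those of the labels: 165, 152, 147, 163 and 164 were transgenic, while 141, 142, 143 and 159 were wild type.

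Actin filaments are polar chains that grow mainly at the barbed end and lose subunits at the pointed end. Nucleators start them, elongation factors and profilin feed the barbed end, capping proteins close either end, cofilins and gelsolin sever them, and crosslinkers bundle them or tie them to adhesions. Tropomyosins are coiled coils that lie along the filament and influence which of these proteins can bind it. In adipocytes a cortical actin layer lies under the plasma membrane, where insulin-driven delivery of the glucose transporter GLUT4 takes place. Free actin monomers hold back a coactivator of the transcription factor SRF, so the state of the filaments feeds back on transcription of actin genes.

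All 8 adipocyte markers were detected on every array. Levels are log2 intensities after background correction and quantile normalization, and a difference is transgenic minus wild type. Adipoq, the adiponectin gene, lay between 15.80 and 16.01 in the 9 mice, among the highest levels of any marker. Other adipocyte markers varied more: Lep ran from 13.82 to 15.38, and Fabp4 from 8.14 to 10.39 with a difference of 1.27 (limma adjusted p = 0.369). Of the 8, 6 were higher and 2 lower. Genes of the neighbouring epididymis differed between the groups: all 10 tested markers were lower in transgenic mice, 6 of them past the test, and none was below background throughout. The log2 of their summed signal ran from 8.66 to 17.25 in transgenic and from 16.59 to 18.58 in wild-type mice. Of all 12171 named genes tested, 0.107% passed. The marker list was chosen with earlier results of these data known, so its count is not independent evidence. Probes detected on at least 4 arrays (detection p under 0.05) were tested, so a marker could enter by the 4 wild-type arrays alone. At their brightest probes, Lcn9 and Adam28 were detected on all 4 wild-type arrays and no transgenic one, Lcn10 and Cst12 on 4 and 1. The direction of such markers is not independent of this filter. In whole tissue, fewer cells of a type and less RNA per cell cannot be told apart. The median raw intensity was 169 to 192 in transgenic mice and 172 in wild-type mouse 141, but 142 to 147 in wild-type mice 142, 143 and 159, so array brightness and genotype cannot be told apart for those 3.

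44 of the 48 genes had a probe detected on at least 4 arrays (detection p under 0.05) and were tested, and each of these was detected on all 9. A gene stands for its brightest tested probe. The other 4 had no tested probe. Cfl1 (cofilin 1) and Rhoa, each read by 1 probe, were detected on none of the arrays and Capza2 on at most 1. Mkl1, the SRF coactivator listed under its newer symbol Mrtfa, was detected on 2. A probe without signal does not show that the gene is silent: of 4 Cdc42 probes, 1 was detected on all 9 arrays and the others on none. The same holds for markers detected on no array. Arpc3, Actr2, Diaph2 and Cnn3 were not analysed here.

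The question was which of these genes had another level in transgenic fat. No member passed the test: 0 of 44 reached an adjusted p under 0.05 (limma, Benjamini-Hochberg over all 23354 tested probes), where 0.107% of the 12171 named genes tested did. At an unadjusted p under 0.05, 4 members were higher in transgenic fat (Tpm3, Cap1, Flna and Cdc42), against a background of 5.55% of all named genes, and 0 were lower, against 3.49%. The lowest adjusted p among the members was 0.452, at Tpm3. The groups did not overlap at 1 member, Cap1, higher in transgenic mice (background 1.96%), and at 0 members that were lower (background 1.37%). The number of members at an unadjusted p under 0.05, in either direction, depended on single mice: it was 0 without mouse 143, 1 without mouse 147, 2 without mouse 142, 163 or 164, and 5 without mouse 152. It was 1 with scaling on the 75th percentile, 7 with array weights, 6 with the epididymal level as a covariate and 21 without normalization between arrays. The epididymal level did not overlap between the genotypes (5.13 to 9.69 in transgenic and 12.03 to 14.83 in wild-type mice). A fit with this covariate therefore cannot cleanly separate it from genotype, here or below. Counts this small over 44 genes are not a result about the members.

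The differences were small. The median over the members was 0.11 on the log2 scale, against 0.04 over all named genes tested, and single members ran from -0.71 (Pfn2) to 0.64 (Fscn1). For 38 of the 44 members (86.4%) the 95% confidence interval lay within a 2-fold change in either direction, as it did for 82.4% of all named genes. The exceptions were Pfn2, Tmod1, Vil1, Cnn2, Fscn1 and Enah, whose intervals reached beyond it. 30 members (68.2%) were higher and 14 lower, where 56.5% of all named genes tested were higher, but with scaling on the 75th percentile in place of quantiles this split was 25 to 19, and without normalization between arrays 43 to 1. It was 24 to 20 without mouse 143 and 19 to 25 with the covariate. Leaving out the normalization between arrays raised the median of all tested probes by 0.39, and 25 of the 44 members then lay above the median of all probes, against 28 with quantile normalization.

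**Figure D1:**
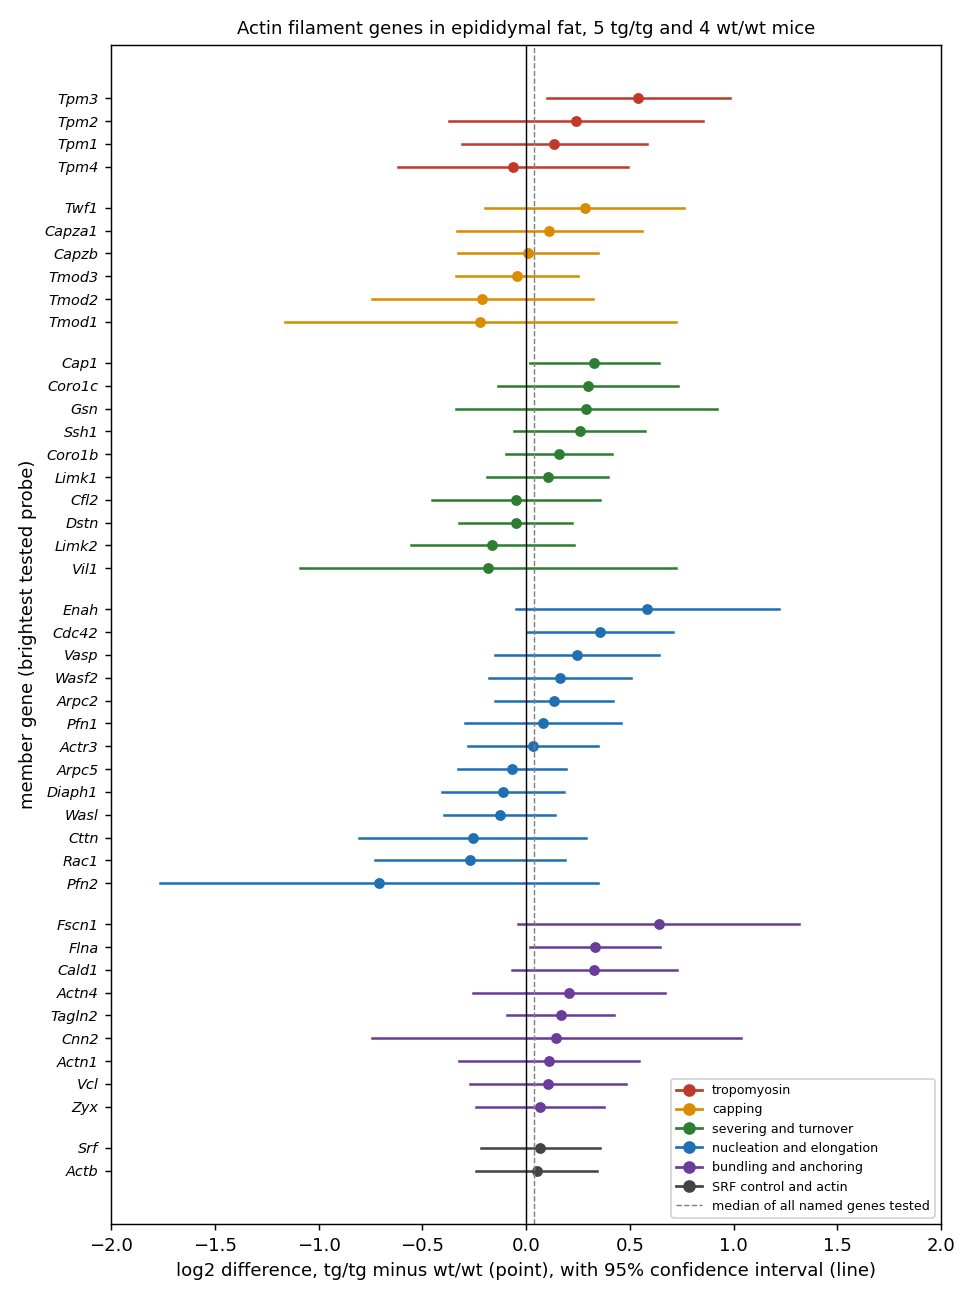
Each point is the log2 difference between 5 transgenic and 4 wild-type mice for 1 member's brightest tested probe, each line its 95% confidence interval, and colours mark the roles; the dashed line is the median of all named genes tested. Intervals of 4 genes exclude 0 before adjustment (Tpm3, Cap1, Flna, Cdc42), and Pfn2 has the widest.

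**Figure D2:**
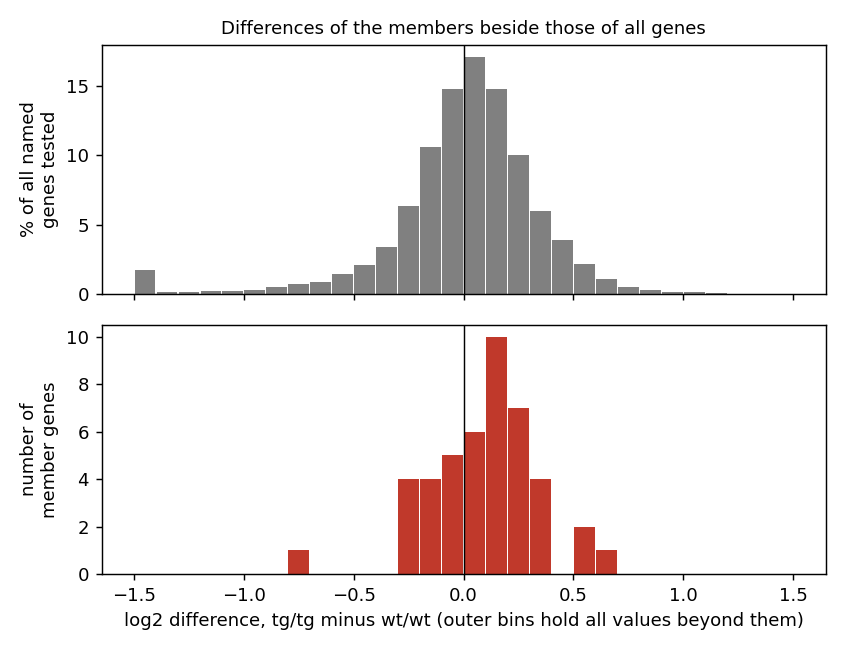
The upper panel gives the share of all 12171 named genes tested in each bin of the log2 difference (0.1 wide), the lower panel the number of the 44 members, with all values beyond the axis placed in the outer bins. The members lie between -0.71 and 0.64, inside the main body of all genes.

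The 4 tropomyosin genes were each tested at 1 to 3 probes, 8 in all. Tm5NM1, the tropomyosin the mice carry, is a product of Tpm3. Tpm3 lies on chromosome 3 (GRCm38.p6, 90072651 to 90100902), and RefSeq annotates an upstream and an internal start site. Short cytoskeletal forms such as Tm5NM1 are made from an internal promoter. The stretches around both starts are shown because they are where long and short forms part; each runs from 70 bases before to 30 bases after the start on the plus strand, with the transcribed bases in capitals.
Tpm3 upstream start, chr3:90072581-90072680: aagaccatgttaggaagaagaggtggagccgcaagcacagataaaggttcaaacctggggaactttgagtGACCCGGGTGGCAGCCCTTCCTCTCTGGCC
Tpm3 internal start, chr3:90079451-90079550: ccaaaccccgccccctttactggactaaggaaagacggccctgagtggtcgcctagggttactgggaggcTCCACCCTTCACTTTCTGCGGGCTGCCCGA

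The brightest Tpm3 probe differed by 0.54 with a 95% confidence interval of 0.10 to 0.98 (limma adjusted p = 0.452). Its lowest transgenic level was 13.09, in mouse 163, and its highest wild-type level 13.21, in mouse 142, so the groups overlapped by these mice alone. A dimmer Tpm3 probe gave 9.22, 8.10, 8.43, 8.61 and 8.61 in transgenic mice 165, 152, 147, 163 and 164, and 8.58, 8.80, 8.39 and 7.57 in wild-type mice 141, 142, 143 and 159. There mouse 152 was the lowest of the transgenic mice, whereas it was the highest of all 9 mice, at 13.83, at the brightest probe. The other 4 Tpm3 probes were detected on 0 to 3 arrays. The sources used here do not say which Tpm3 transcripts the probes read, or whether any of them reads the transgene.

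Tpm1 encodes tropomyosins of muscle and of many other cells. It gave 13.13, 14.19, 13.63, 13.59 and 13.36 in transgenic mice 165, 152, 147, 163 and 164, and 13.41, 13.36, 13.40 and 13.60 in wild-type mice 141, 142, 143 and 159. The transgenic mice reached beyond the narrow wild-type range at both ends, with mouse 163 inside it, and the difference was 0.14 (95% confidence interval -0.31 to 0.58). Its dimmer tested probe differed by 0.11, again with mouse 152 highest of all. Without mouse 152 the 2 differences were -0.02 and -0.04.

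Tpm2 encodes a tropomyosin abundant in muscle. Its transgenic levels were 10.15, 11.27, 11.08, 11.06 and 10.44, and its wild-type levels 10.80, 9.93, 10.68 and 10.83, in the same order of mice. Mouse 142 stood below the other wild-type mice, and the difference of 0.24 became 0.03 without it. At their brightest probes, Tpm1 and Tpm2 were lowest among the transgenic mice in 165 and highest in 152. Among smooth muscle genes, the actin Acta2 (14.07 in mouse 165 and 15.08 in mouse 152) and the myosin Myh11 (10.52 and 11.74) had the same 2 mice at the ends of the transgenic group, as did Mylk and Actg2. The other 3 tested markers did not: Tagln was highest in mouse 147, Des lowest in mouse 164 and Smtn lowest in mouse 152 (10.84). The largest difference among these markers was that of the enteric actin Actg2, -3.36 without overlap between the groups (adjusted p = 0.168). Of 8 smooth muscle markers, 7 were tested, 4 higher and 3 lower with 0 past the test. The log2 of their summed signal was 14.99 to 15.84 in transgenic and 15.45 to 16.32 in wild-type mice, and the calponin Cnn1 was detected on no array. The highest sums were in wild-type mice 141 (16.17) and 143 (16.32), where Actg2 read 14.89 and 15.21, against 8.95 to 11.06 in transgenic mice. The part of smooth muscle in the tropomyosin levels was not tested.

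Tpm4, a cytoskeletal tropomyosin, was read by 3 probes that did not move alike. At the brightest, transgenic mice gave 14.58, 13.79, 14.80, 14.57 and 14.62 and wild-type mice 14.62, 14.93, 13.95 and 14.65. Mice 152 and 143 were the low ones of their groups, and the difference was -0.06 (95% confidence interval -0.62 to 0.49). The second probe repeated the low levels in mice 152 (8.82) and 143 (8.96), with a difference of -0.06. The dimmest probe differed by 0.52 (interval 0.03 to 1.01, limma adjusted p = 0.513), with 9.34 in mouse 147 as its highest level and 8.17 in mouse 152 inside the wild-type range of 8.01 to 8.50. Under no normalization between arrays this probe passed, at 0.95 (adjusted p = 0.0418), where the median of all probes was itself 0.43.

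**Figure D3:**
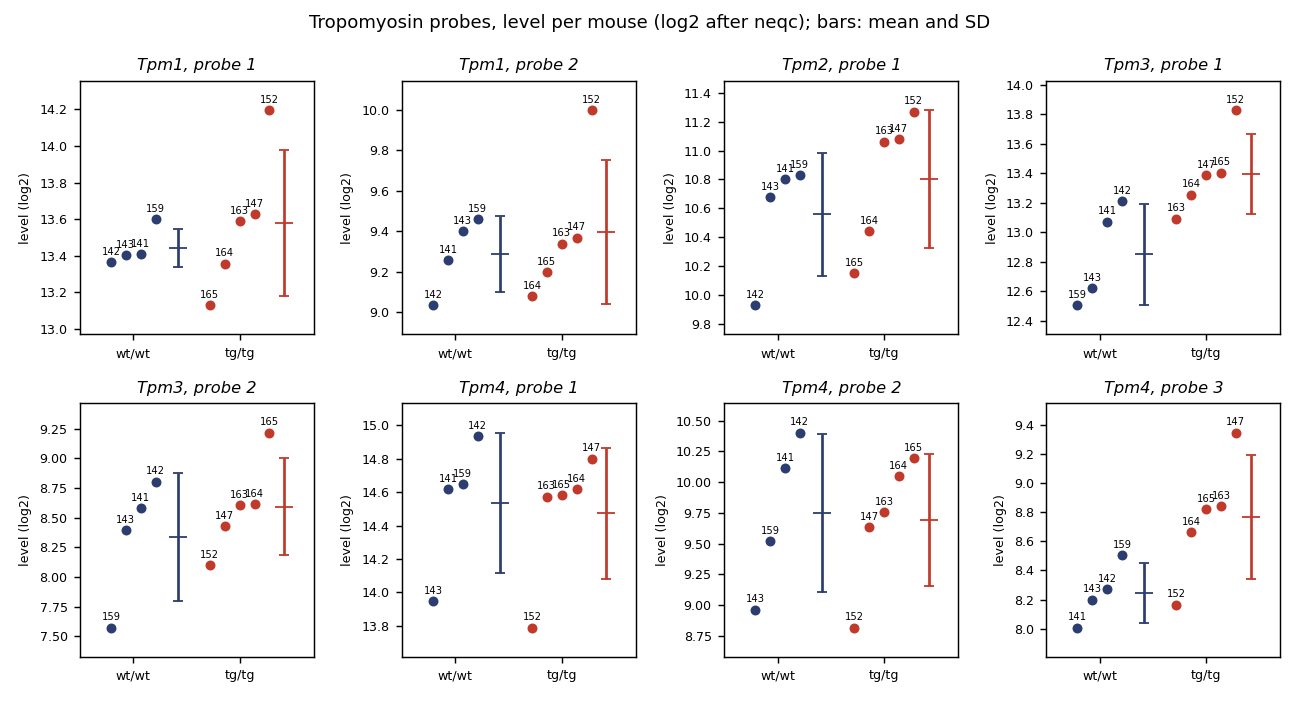
Levels of the 8 tested tropomyosin probes (log2, vertical axis) in 4 wild-type and 5 transgenic mice, each point labelled with its mouse, with the group mean and SD beside the points. At the brightest Tpm3 probe the transgenic mice lie between 13.09 and 13.83 and the wild-type mice between 12.51 and 13.21; the groups overlap in every other panel too.

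Capping genes showed no shift. Of 7 listed, 6 were tested, 3 higher and 3 lower, with differences from -0.22 to 0.28 and a median of -0.02. Twf1, twinfilin 1, which binds monomers and barbed ends, averaged 7.33 ± 0.19 (SD, n = 5) in transgenic and 7.05 ± 0.47 (SD, n = 4) in wild-type mice, a difference of 0.28 (limma adjusted p = 0.711). The barbed-end capping subunit gene Capza1 differed by 0.11 (adjusted p = 0.893). Capzb, which encodes its partner subunit, was read by 4 probes that disagreed: the brightest differed by 0.01, the next by -0.25 and the 2 dimmest by 0.44 and 0.59, with adjusted p from 0.642 to 0.994.

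Tropomodulins cap the pointed end and bind tropomyosin there. Tmod1 gave 7.18 in transgenic mouse 165 and 9.69 in transgenic mouse 152, with 8.56, 8.85 and 8.79 in mice 147, 163 and 164. Wild-type mice 141, 142, 143 and 159 gave 8.51, 9.40, 8.72 and 8.71, all inside the transgenic range. The difference was -0.22 with a wide interval, -1.16 to 0.72, and it was 0.14 without mouse 165. Tmod2 also differed by -0.21 (adjusted p = 0.821), with its lowest level, 6.41, in mouse 152. Tmod3, the tropomodulin of most tissues, varied little, from 11.82 to 12.26 over the 9 mice.

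Severing and turnover genes included the 1 member whose groups did not overlap. 10 of 11 were tested, 6 higher and 4 lower, from -0.18 to 0.33. Cap1, a cyclase-associated protein that works with cofilin to recycle monomers, gave 12.22, 12.18, 12.29, 12.24 and 12.53 in transgenic mice 165, 152, 147, 163 and 164, and 12.14, 11.97, 11.68 and 12.06 in wild-type mice 141, 142, 143 and 159. The gap between the groups, from 12.14 in mouse 141 to 12.18 in mouse 152, was narrower than the spread within either. The difference was 0.33 (95% confidence interval 0.02 to 0.64, limma adjusted p = 0.513).

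Cofilin is switched on and off by phosphorylation. Ssh1, a phosphatase that switches cofilin on, differed by 0.26, at 8.05 ± 0.13 (SD, n = 5) against 7.79 ± 0.22 (SD, n = 4; adjusted p = 0.603). The kinase gene Limk1, whose product switches cofilin off, differed by 0.10. Its relative Limk2 differed by -0.16 at its brightest probe. A dimmer Limk2 probe, picked out after its values were seen, read 5.72 to 5.98 in transgenic and 6.03 to 6.38 in wild-type mice, without overlap, at -0.34 (adjusted p = 0.451). That probe was detected on 8 arrays, and 272 of all 23354 tested probes were lower without overlap. Cfl2, the muscle cofilin, and Dstn, destrin, which share the severing role, each differed by -0.05.

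Coronins help to take apart branched actin. Coro1c differed by 0.30, with mouse 152 at 11.48 below all wild-type mice and the other 4 transgenic mice at 12.04 to 12.37, above all of them. Coro1b read 12.58 ± 0.03 (SD, n = 4) in wild-type and 12.74 ± 0.12 (SD, n = 5) in transgenic mice, a difference of 0.16 (adjusted p = 0.694). Gelsolin, a severing protein encoded by Gsn, varied more among wild-type mice (13.04 to 14.61) than among transgenic ones (13.78 to 14.29).

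Villin, encoded by Vil1, severs and bundles actin in epithelial microvilli. It read 6.78 in transgenic mouse 165, 8.22 to 8.96 in the other transgenic mice and 8.23 to 8.73 in wild-type mice. Mouse 165 stood far below the rest, and the difference of -0.18 had a wide interval, -1.09 to 0.72.

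Nucleation and elongation was the largest role, with 13 of 17 genes tested, 7 higher and 6 lower, a median of 0.03 and a range of -0.71 to 0.58. Cdc42, a GTPase that promotes filopodia, gave 11.44, 11.13, 11.33, 10.99 and 11.10 in transgenic mice 165, 152, 147, 163 and 164, and 11.10, 10.94, 10.83 and 10.51 in wild-type mice 141, 142, 143 and 159. Mouse 163 alone of the transgenic mice came below wild-type mouse 141, and mouse 164 was level with that mouse to 2 decimals. Its difference was 0.36 (95% confidence interval 0.01 to 0.71, adjusted p = 0.525).

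Enah and Vasp belong to a family that keeps barbed ends growing. Enah gave 7.85, 8.66, 8.76, 9.32 and 9.19 in transgenic and 7.80, 8.11, 8.40 and 8.38 in wild-type mice, in the same order. 4 transgenic mice lay above every wild-type mouse, and mouse 165 lay near the lowest. The difference was 0.58 (adjusted p = 0.557), at the next probe 0.51 and at the dimmest -0.01. Vasp differed by 0.24 (adjusted p = 0.697).

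Profilins deliver monomers to growing ends. Pfn2, the profilin best known from neurons, had the largest difference of any member, -0.71, and the widest spread. Transgenic mice 165, 152, 147, 163 and 164 gave 9.78, 12.50, 10.42, 10.63 and 10.54, and wild-type mice 141, 142, 143 and 159 gave 11.58, 10.82, 11.89 and 11.64. 4 transgenic mice were below every wild-type mouse, and mouse 152 was above them all. A second probe gave -0.81 with the same mouse apart, at 12.31. The test gave adjusted p = 0.667 with all mice, and without mouse 152 the difference was -1.14 (adjusted p = 0.101). Pfn1, the general profilin, differed by 0.08 and 0.12 at its 2 probes.

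Genes of the Arp2/3 complex, which nucleates branches, were tested at 3 subunits. Arpc2 differed by 0.13, Actr3 by 0.03 and Arpc5 by -0.07, and Arpc5 levels ran from 14.18 to 14.54 over the 9 mice. The complex's activators Wasl (N-WASP) and Wasf2 (WAVE2) differed by -0.13 and 0.16. Cttn, cortactin, which stabilises branches, differed by -0.26 at its brightest probe and by 0.11 to 0.31 at the other 3. Diaph1, a formin that nucleates straight filaments, differed by -0.11 and 0.23 at 2 probes, and the GTPase gene Rac1 by -0.27.

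Bundling and anchoring genes were all higher at their brightest probe, 9 of 9 tested with differences from 0.07 to 0.64, and 0 passed the test, where 56.5% of all named genes tested were higher. Dimmer probes of Actn4 (-0.20) and Cald1 (-0.04) were lower. Their median was 0.17. With the epididymal level as a covariate it was -0.15, and without normalization between arrays it was 0.57, where the median of all probes was 0.43. Flna, filamin A, which crosslinks filaments into networks, gave 10.59, 10.68, 10.78, 10.77 and 10.44 in transgenic mice 165, 152, 147, 163 and 164, and 10.54, 10.20, 10.10 and 10.44 in wild-type mice 141, 142, 143 and 159. All but mouse 164 lay above the wild-type mice. The difference was 0.33 (95% confidence interval 0.02 to 0.65, adjusted p = 0.513).

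Fscn1, fascin, packs filaments into the tight bundles of filopodia. It had the largest positive difference of any member, 0.64 (interval -0.04 to 1.32, adjusted p = 0.551). Transgenic mice gave 11.36, 9.69, 10.74, 10.81 and 10.94 and wild-type mice 10.13, 10.27, 9.61 and 10.26, so that mouse 152 sat among the wild types and the other 4 above them. Without mouse 152 the difference was 0.89 (adjusted p = 0.0988). Among the transgenic mice, mouse 152 also had the lowest mean level of the endothelial markers (11.26), with mice 163 (12.28) and 165 (12.20) highest. It was lowest for the macrophage (10.47) and lymphocyte (6.28) means too, with mouse 165 highest (11.56 and 8.16). Mice 152 and 165 were also lowest and highest of the transgenic mice for the adipocyte mean (12.05 and 12.91). The same held for the fibroblast and preadipocyte (12.36 and 12.57) and skeletal muscle (6.78 and 7.35) means. The sperm mean was lowest in mouse 152 (5.20), the mesothelium mean in mouse 164 (7.72). The smooth muscle and epididymis means were instead highest of the transgenic mice in mouse 152 (11.59 and 9.69). 6 of 7 endothelial markers were tested, all 6 higher in transgenic mice with 0 past the test. The log2 of their summed signal was 14.31 to 15.29 against 14.45 to 14.98, and Kdr was detected on no array. The part of endothelium or of other cell types in the Fscn1 level was not tested.

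Cald1, caldesmon, which binds actin together with tropomyosin, differed by 0.33 at its brightest probe (interval -0.07 to 0.73, adjusted p = 0.599), while its 3 other tested probes gave -0.04, 0.06 and 0.26. Tagln2, transgelin 2, which stabilises filaments, differed by 0.17, from 12.98 to 13.23 in transgenic and from 12.88 to 13.02 in wild-type mice. Mouse 142 was the 1 wild-type mouse that reached into the transgenic range. The alpha-actinin genes Actn1 and Actn4 differed by 0.11 and 0.21, with more spread among wild-type than among transgenic mice (SD 0.44 against 0.11 for Actn1). Of the adhesion proteins, zyxin (Zyx) differed by 0.07 and vinculin (Vcl) varied from 13.04 to 13.72 over the 9 mice.

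SRF control was represented by Srf itself and its target Actb, since the coactivator probe was not tested. Srf gave 10.82, 11.11, 10.99, 10.95 and 11.01 in transgenic mice 165, 152, 147, 163 and 164, and 10.73, 10.82, 10.96 and 11.12 in wild-type mice 141, 142, 143 and 159. The groups covered nearly the same span, and the difference was 0.07 (interval -0.22 to 0.35, adjusted p = 0.902). Actb, cytoplasmic beta-actin, differed by 0.05 (interval -0.24 to 0.34, adjusted p = 0.929) and lay between 14.86 and 15.27 in all mice.

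Actb was read by 5 probes, all with differences between 0.05 and 0.11 but with unequal spread. The dimmest pair ranged from 7.86 to 10.10 and from 8.17 to 10.46 over the 9 mice. Mice 165, 164 and 141 were low there and mice 147, 159 and 152 high, whatever the genotype. Mice 165 and 164 gave 7.97 and 7.97 at the dimmest probe, and mice 147 and 159 gave 10.01 and 10.10. The part of RNA quality in this spread was not tested.

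SRF binds a motif of 10 bases called the CArG box. In RefSeq promoter windows of 300 bases (250 before to 50 after an annotated start, GRCm38.p6), which were given for 42 of the 48 members, 4 of 52 windows (7.69%) held a CArG box, against 1.63% of all 32851 windows. The motif reads as itself on the other strand, so a single search covered both. The 4 stretches are shown because they are the only member windows searched that hold the motif; the boxes are in capitals, and each stretch has at most 25 bases of flank.
Srf, minus strand, chr17:46556190-46556269: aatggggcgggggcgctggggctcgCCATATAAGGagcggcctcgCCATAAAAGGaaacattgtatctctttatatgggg
Cnn2, plus strand, chr10:79988519-79988578: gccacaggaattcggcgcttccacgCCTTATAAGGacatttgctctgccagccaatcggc
Vcl, plus strand, chr14:20929148-20929205: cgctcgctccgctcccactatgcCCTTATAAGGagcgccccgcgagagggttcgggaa
Vil1, plus strand, chr1:74409286-74409345: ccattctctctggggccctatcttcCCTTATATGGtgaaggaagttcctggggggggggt
Counted from the start, the first base of the box lay at -56 in Cnn2, -73 in Vil1 and -227 in Vcl, and Srf held a pair of boxes. Of these genes Srf, Vcl and Cnn2 were higher by 0.07, 0.105 and 0.15 and Vil1 was lower, at -0.18, none past the test. No tropomyosin window held the motif. The promoters of Actb, Coro1b, Cttn, Diaph1, Rac1 and Tmod3 were not searched. A match in these letters is not evidence of binding.

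**Figure D4:**
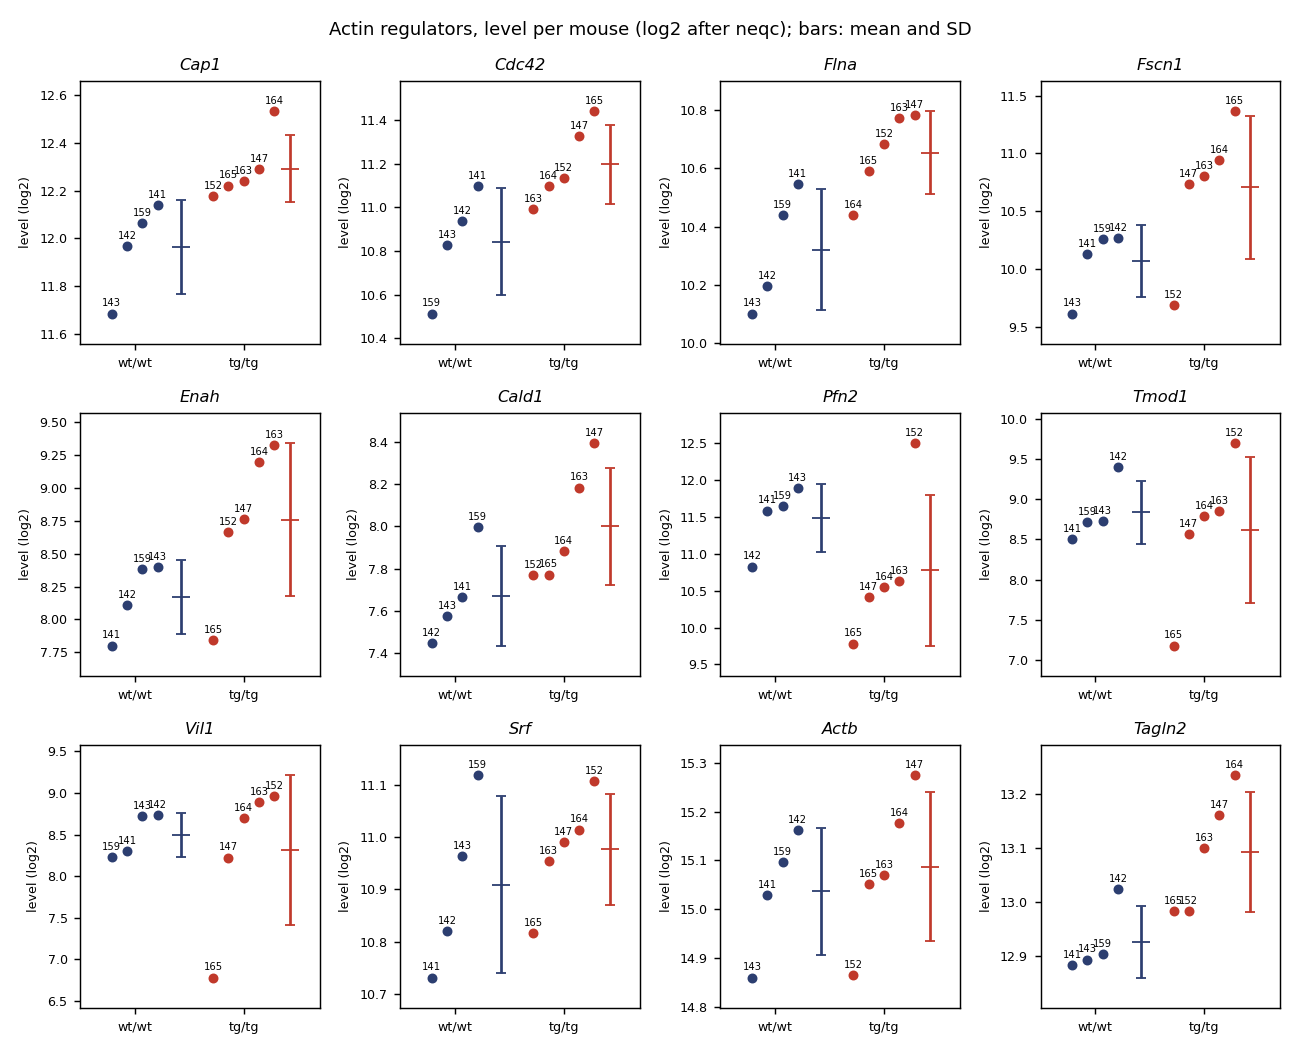
Levels (log2, vertical axis) of 12 members at their brightest tested probe in 4 wild-type and 5 transgenic mice, each point labelled with its mouse, with the group mean and SD beside the points. Cap1 is the panel without overlap (12.18 and above against 12.14 and below); in Pfn2, Tmod1 and Vil1 mice 165 and 152 lie far apart within the transgenic group.

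Differences between mice of the same genotype were larger than those between genotypes for several members. Over the 9 mice the members spanned a median of 0.83, against 0.93 for all named genes tested, and 3 of 44 (6.82%) spanned more than 2 on the log2 scale, against 10.6% of all genes. These were Pfn2 (2.71), Tmod1 (2.51) and Vil1 (2.18). In all 3 the lowest mouse was 165 and the highest 152, both transgenic. Epithelial keratins had the same order at the ends: Krt8 read 10.24 in mouse 165 and 13.44 in mouse 152, and Krt18 8.19 and 11.36. Krt19 also had these 2 mice at the ends, but Krt7 was lowest in mouse 164 and highest in wild-type mouse 143 (7.79). Such ends were common: mouse 152 was lowest or highest of the 9 for 34.1% of members and 33.4% of all named genes tested. For mouse 165 these shares were 29.5% and 34.8%. The array weights of mice 165 and 152 were 0.51 and 0.37, against 2.14 to 2.51 in the other transgenic and 0.35 to 1.94 in wild-type mice. The other mesothelial markers Upk3b, Upk1b, Msln and Lrrn4 were highest of the transgenic mice in mouse 165, with Upk3b at 12.02 there and 9.40 in mouse 152. The mean of the epididymis markers was 5.13 in mouse 165 and 9.69 in mouse 152, and 12.03 to 14.83 in wild-type mice. Pfn2 in wild-type mice lay above 4 of the transgenic mice, while wild-type levels of Tmod1 and Vil1 fell inside the transgenic range. The mesothelium list, which holds these 8 genes, was lower at all 8 tested markers of 9 with 0 past the test, and the log2 of its summed signal was 12.45 to 14.00 in transgenic and 13.54 to 13.98 in wild-type mice. The part of epithelial cells in these 3 members was not tested.

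**Figure D5:**
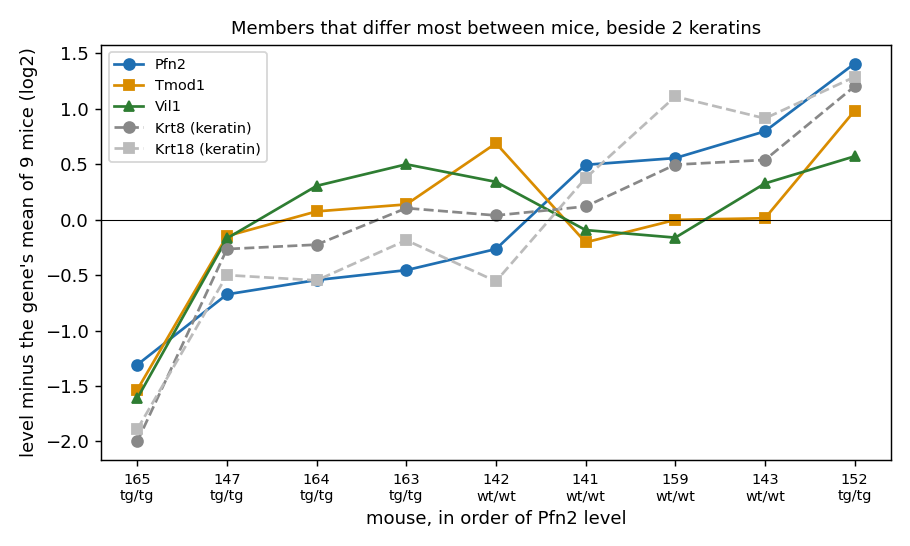
Level minus the gene's mean over 9 mice (log2, vertical axis) for Pfn2, Tmod1 and Vil1 and, dashed, the keratins Krt8 and Krt18, with mice in order of their Pfn2 level. Mouse 165 is lowest for all 5 genes and mouse 152 highest; between them the 3 members follow different orders.

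Where a member had several tested probes, these often disagreed in sign: of 21 such genes, 11 had all probes in 1 direction and 10 did not, among them Tpm4, Capzb, Cttn, Diaph1, Actn4, Cald1 and Srf.

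A further 66 actin filament genes outside the members were examined as a pathway list, of which 58 had a probe and 54 were tested. 0 passed the test in either direction, 29 were higher and 25 lower, with a median of 0.03. At an unadjusted p under 0.05, 2 were higher and 1 lower, against 5.55% and 3.49% of all named genes tested. Wipf2, a partner of N-WASP, gave 8.50, 8.71, 8.76, 8.89 and 8.68 in transgenic mice 165, 152, 147, 163 and 164 and 7.71, 8.06, 8.28 and 8.25 in wild-type mice 141, 142, 143 and 159, without overlap. It was the 1 gene of the list that was higher without overlap, where 1.96% of all named genes were. Its difference of 0.63 had an adjusted p of 0.285. It passed with array weights (0.82, adjusted p = 0.0309), where 170 of all probes were called higher. It also passed without normalization between arrays (1.05, adjusted p = 0.0349), where 1283 were and the median of all probes was 0.43. Daam1, a formin, differed by 0.53 (adjusted p = 0.407) and passed in the latter setting at 0.94 (adjusted p = 0.0442).

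Capg, a barbed-end capping protein of macrophages and epithelia, had the largest difference on that list, -0.96 (interval -1.59 to -0.33, adjusted p = 0.373). It gave 10.02, 9.95, 10.17, 10.33 and 10.47 in transgenic mice and 11.17, 10.22, 11.84 and 11.35 in wild-type mice, in the same order. Only wild-type mouse 142 reached the transgenic range. Among the epididymis markers mouse 142 also had the lowest mean of the wild-type mice, 12.03, and mouse 143, highest for Capg, had the highest, 14.83. Among transgenic mice the order differed: mouse 152 had the highest epididymis mean, 9.69, and the lowest Capg level, while mouse 164, highest for Capg, had a mean of 5.34. Of 5 macrophage markers with a probe 4 were tested, 2 higher and 2 lower with 0 past the test, with the log2 of the summed signal at 13.12 to 14.38 against 13.62 to 14.35 and Itgam detected on no array. The part of other cell types in the Capg level was not tested. Coro2a, a coronin, differed by -0.79 and Arpc5l, a variant subunit of the branching complex, by -0.32 (adjusted p = 0.564 and 0.559).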

How the data were processed

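Trizol RNA, cleaned on RNeasy columns with DNase, was turned into biotinylated cRNA with an Ambion MessageAmp kit, per the labels' protocols. The sources used here do not say how the authors normalized, if at all. The series matrix holds deposited intensities, which are linear. A second deposited table, called non-normalized, gives intensities and, per the file headers, a detection p-value for each probe. Ordered by the series matrix intensities, the detection p rose with signal at 0 places on each array; ordered by the second table it rose at 5386 to 6789 places on 8 arrays, whose intensities were 0.80 to 0.95 of the series matrix values. The series matrix was therefore used and the second table kept as an alternative.

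Intensities were processed with neqc in limma 3.58.1 (R 4.3.3): background from detection p, offset 16, quantile normalization, log2. The 23354 probes with detection p under 0.05 on at least 4 of 9 arrays entered lmFit and eBayes with genotype as the sole term (5 transgenic and 4 wild-type mice), two-sided, without covariates, and adjusted by Benjamini-Hochberg over all of them. Only the fit and its adjustment were run on simulated data, drawn as normal noise around the normalized levels. Background correction, normalization and the detection filter were not tested that way. The mice carry separate numbers; their number limits the precision, and cage, litter and slide were not among the labels.

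Members, roles, marker lists and tests were chosen with earlier results of these data known. Named with values were every tested tropomyosin probe, the 4 members with the lowest unadjusted p in each other role, members without overlap and the 5 lowest of the pathway list; other members are given with their difference or range. Mkl1 was matched through its RefSeq synonym Mrtfa. Marker lists other than those in the text differed as follows: sperm 3 of 3 tested lower, skeletal muscle 1 of 3 higher, lymphocyte 4 of 4 higher, fibroblast and preadipocyte 3 of 5 higher, adipocyte 6 of 8 higher, 0 past the test in each. Alternatives were other background, scaling, filter, prior and source settings, array weights, the epididymal level as a covariate, and each mouse left out. Promoters are from RefSeq (GRCm38.p6).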

Additional observations from a re-analysis of the deposited data

Results flagged for a closer look

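3 levels stood apart from the rest of their group, by a gap large against the group's whole range, among 62 groups of 4 or 5 mice examined; chance flags about 1 in 20 groups. Tpm2 in wild-type mouse 142 read 9.93, below the 10.68 to 10.83 of the other wild-type mice. The brightest Tpm4 probe in transgenic mouse 152 read 13.79, below the 14.57 to 14.80 of the other transgenic mice. Tagln2 in wild-type mouse 142 read 13.02, above the 12.88 to 12.90 of the others.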

How the results depend on the processing

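No paired analysis was possible because each mouse has its own number and none is shared between the groups. The count of members past the test was 0 in all 20 alternatives, including each mouse left out. Any tested probe in place of the brightest was taken in the main fit only, and the other alternatives counted brightest probes. The dimmest Tpm4 probe passed without normalization between arrays (limma adjusted p = 0.0418). Over all probes the test called 16 lower and 0 higher. This was 1 lower with detection on all 9 arrays, 183 lower and 170 higher with array weights, 49 lower and 1283 higher without normalization between arrays, 2 lower and 10 higher with the covariate, 40 lower and 10 higher without mouse 152 and 34 lower and 2 higher without mouse 142. It was 9 lower and 0 higher without a detection filter and without each of mice 147, 163 and 164. The pathway count of 0 became 3 without normalization and 1 with array weights.

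In the following settings the median of a list moved by at least 1 SD between mice of the list's mean level (pooled within genotype). Without normalization between arrays they were 0.46 for all members, 0.54 for tropomyosin, 0.35 for capping, 0.52 for severing and turnover, 0.37 for nucleation and elongation, 0.57 for bundling and anchoring, 0.41 for SRF control and 0.39 for the pathway list, while the median of all probes was 0.43. With the epididymal level as a covariate, whose mean did not overlap between the genotypes, they were -0.14 for all members, 1.03 for tropomyosin, -0.0946 for severing, -0.15 for nucleation, -0.15 for bundling and -0.21 for the pathway list. With 75th percentile scaling the median of all members was 0.0364 and that of nucleation -0.055, and with array weights that of nucleation was -0.0746. With a mouse left out, nucleation ran from -0.0781 (without 143) to 0.11 (without 141). The causes were not tested.

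Of 589 values of the 31 named probes over the alternatives, 554 kept their direction and side of the threshold, 31 turned direction and 4 passed (Tpm4 dimmest probe, Wipf2 in 2 settings and Daam1). The brightest Tpm3 probe kept its direction in each alternative, from 0.30 with array weights to 1.03 with the covariate, with adjusted p from 0.0566 to 0.732. Turned without normalization were Tpm4 at its brightest (0.24) and second probe (0.36), Tmod2 (0.22), Tmod1 (0.19) and Arpc5l (0.0736). With array weights the brightest Tpm4 probe was 0.0278 and Tmod2 0.0895, and with 75th percentile scaling Actb was -0.0581. With the covariate the dimmer Tpm3 probe was -0.49, the dimmest Tpm4 probe -0.0712, Capza1 -0.33, Tmod1 1.01, Ssh1 -0.0417, Coro1c -0.49, Coro1b -0.15, Pfn2 1.96, Vasp -0.55, Fscn1 -1.14, Actb -0.28, Arpc5l 0.13 and Coro2a 1.06. With a mouse left out, differences turned for Tpm1 (-0.0176 to 0.25; dimmer probe -0.0407 to 0.19), Tpm4 (-0.26 to 0.11; second probe -0.32 to 0.16), Capza1 (-0.0272 to 0.22), Tmod1 (-0.49 to 0.14) and Actb (-0.0079 to 0.11).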
